A study of Mus musculus with 6 samples.

Results

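The genes described here are 50 genes of mitosis and cytokinesis, measured in hepatocytes of mice that received Sox4, a transcription factor, on a viral vector. The genes were taken by symbol from a list of known mitotic genes, and they are 50 of 53599 gene symbols in the count table. The rule uses no measured value, but the list was chosen with earlier results of these data known. All 50 were found, and 46 of them were among the 12691 genes that passed the filter on low counts, which asked for about 10 counts in at least 3 libraries. The members were ordered by 8 roles, namely entry into mitosis, chromosome condensation, spindle assembly, the kinetochore, the spindle checkpoint, anaphase, the chromosomal passenger complex, and the central spindle and cytokinesis.

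RNA-Seq was performed on liver hepatocytes harvested 4 days after injection, with 3 libraries in each of 2 groups. The Sox4 group was labelled with the genotype Sox4 and the vector AAV8-TBG-HA-Sox4-P2A-Cre, an adeno-associated virus that carries HA-tagged mouse Sox4 and Cre recombinase. The control group, empty vector (EV), was labelled WT and received AAV8-TBG-Cre, so both groups expressed Cre, and in both the insert was driven from the TBG promoter, a hepatocyte promoter. The mice were male Rosa-LSL-Cas9-EGFP animals on a C57BL/6J background, 4 to 8 weeks old at a retro-orbital injection, so that Cre also switched on Cas9 and EGFP in both groups. Cells were released with liberase and enriched on Percoll, a density medium, without sorting for cells that carried the vector. The libraries are named EV 1 to 3 and Sox4 1 to 3, and the study's description of these libraries gives the replicates as separate animals, so p-values measure the spread between mice.

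Mitosis is driven by cyclin B with the kinase Cdk1. Condensed chromosomes attach to spindle microtubules through kinetochores, a checkpoint holds anaphase until every kinetochore is attached, and cytokinesis then divides the cell. Most of these genes are silent in resting cells and are transcribed late in the cell cycle. Adult hepatocytes seldom divide, but they re-enter the cycle after loss of liver tissue, and many are polyploid or binucleate because cytokinesis failed in an earlier division. Many late cell cycle promoters hold a cell cycle homology region (CHR), a short element to which the MuvB core binds, as part of the repressive DREAM complex in resting cells and with B-Myb and FoxM1 in dividing cells.

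The letters of the CHR were found close to the start of most member promoters. RefSeq promoters (250 bases before to 50 bases after the transcription start, assembly GRCm38.p6) were held for 42 of the 50 members, with 44 promoters in all. TTTGAA or TTCGAA, read on both strands, stood somewhere in 34 of the 44 promoters (77.3%), against 19.2% of all 32851 promoters of that length. Within 50 bases of the start they stood in 32 of 44 (72.7%), against 5.31% of all promoters. They were not particular to the 50 members, since 36 of 58 promoters (62.1%) of further mitotic genes held them, 28 (48.3%) within 50 bases of the start. Of the promoters of DNA replication genes, 4 of 22 (18.2%) held the letters, and of those of the core subunits of the anaphase-promoting complex, 2 of 17 did (11.8%). CCAAT, the letters of the NF-Y box, were in 31 of 44 member promoters (70.5%) against 37.4% of all, and also in 16 of 22 replication promoters (72.7%).

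**Figure D1:**
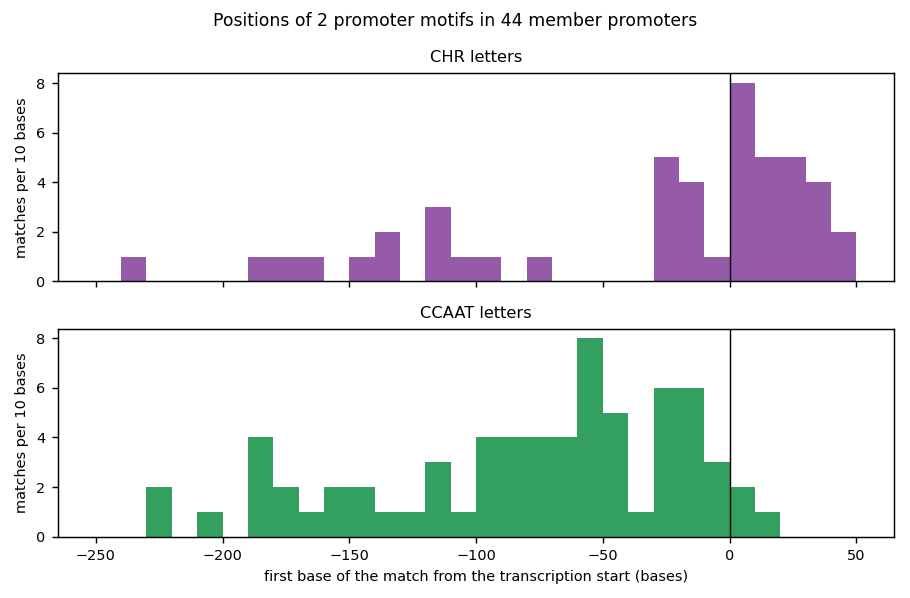
Distance of each CHR match (TTTGAA or TTCGAA, upper panel) and each CCAAT match (lower panel) from the transcription start in the 44 member promoters, in bases, with the number of matches per 10 bases on the vertical axis. Of 47 CHR matches, 34 lie within 50 bases of the start, whereas CCAAT matches are spread over the stretch before it. CCAAT also stands within 50 bases of the start in 21 of the 44 promoters (47.7%), against 13.5% of all promoters.

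Windows of 30 bases around the match nearest the start are shown for members of 7 roles, on the gene's own strand and with the CHR letters in capitals, because these letters near the start were the most frequent feature searched for in the member promoters.
Ccnb2: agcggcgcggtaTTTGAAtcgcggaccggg
Cdk1: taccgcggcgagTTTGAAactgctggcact
Plk1: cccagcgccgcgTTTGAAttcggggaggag
Smc2: ctcgcgccgaaaTTCAAAggaacagttccg
Hmmr: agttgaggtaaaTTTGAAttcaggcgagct
Cenpf: ggcggcgggcagTTTGAAtcgctcgtgctg
Spc25: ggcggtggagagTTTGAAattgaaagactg
Bub1: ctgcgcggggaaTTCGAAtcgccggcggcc
Cdc20: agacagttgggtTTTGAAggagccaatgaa
Kif4: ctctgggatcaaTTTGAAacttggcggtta
Racgap1: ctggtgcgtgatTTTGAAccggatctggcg
The Smc2 window shows TTTGAA from the other strand, read as TTCAAA. In GRCm38.p6 the windows lie at chr9:70421533-70421562 for Ccnb2 (minus strand), chr10:69352910-69352939 for Cdk1 (minus), chr7:122159453-122159482 for Plk1 (plus), chr4:52439235-52439264 for Smc2 (plus), chr11:40733412-40733441 for Hmmr (minus) and chr1:189688067-189688096 for Cenpf (minus). The others lie at chr2:69206172-69206201 for Spc25 (minus), chr2:127831828-127831857 for Bub1 (minus), chr4:118437344-118437373 for Cdc20 (minus), chrX:100626072-100626101 for Kif4 (plus) and chr15:99651634-99651663 for Racgap1 (minus). Each window lies within 50 bases of the annotated start. A match is a description of the letters and not a measured binding site.

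The libraries held 15090629 to 16249382 counts in EV and 16679195 to 16964860 in Sox4. Sox4 itself, which the vector supplies, had 2, 0 and 3 counts in the EV libraries and 21697, 15097 and 11816 in the Sox4 libraries. Levels are given as CPM, counts scaled to a common library size (1e06) with library sizes adjusted by the TMM method, whose factors were 0.840 to 0.861 in EV and 1.18 in Sox4, so an equal count is a lower level in Sox4. In CPM, a floor of 3 counts was 0.218 to 0.231 for the EV libraries and 0.150 to 0.153 for the Sox4 libraries, and floors and counting intervals below cover counting error only, since PCR copies are not independent molecules. Summed levels of markers of other cell types were, in CPM, 13.9 to 29.3 in EV and 31.1 to 72.2 in Sox4 for 11 Kupffer cell genes (5 of 10 tested rose), 22.5 to 38.1 and 20.2 to 50.6 for 10 endothelial genes (2 of 10 tested rose and 1 fell), 10.6 to 48.8 and 89.1 to 146.0 for 10 stellate cell genes (3 of 4 tested rose, with Reln the most abundant), and 40.5 to 53.9 and 86.7 to 96.8 for 8 cholangiocyte genes (2 of 5 tested rose). For 10 lymphocyte genes they were 0.616 to 2.73 and 1.40 to 4.04, with Ms4a1 at 0 throughout, and for 8 neutrophil genes 0 to 0.871 and 0.152 to 1.07, with Ly6g and Camp at 0. Of 9 erythroid genes 1 was not analysed here, and the sum, mostly Alas2, was 95.9 to 129.5 in EV and 5.68 to 16.4 in Sox4. Hepatocyte markers were abundant in every library, and 10 of 12 were lower in Sox4. Of all tested genes, 29.0% rose and 26.0% fell, which are the shares to set beside these marker counts.

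Most mitotic genes had a higher level in Sox4 hepatocytes, many of them from counts at or near 0 in EV. Of all 50 members, 48 had a higher level in each Sox4 library than in any EV library and 2, Spc24 and Pttg1, a lower one, against 22.0% and 17.9% of the 24036 genes with a count. Among tested members this was 44 and 2 of 46, against 33.1% of all tested genes above and 63.0% in either direction. Of the 46 tested members, 43 rose in the Sox4 group, against 29.0% of all tested genes, 2 fell, against 26.0%, so 45 passed where 55.1% of all tested genes did, and Cdc25b did not pass (adjusted p under 0.05 by edgeR's quasi-likelihood test with Benjamini-Hochberg correction). The filter had to be passed through the Sox4 libraries by 34 of the 46, which did not reach 10 counts in every EV library, so the count of tested members alone carries little. Without a filter, all 50 could be tested, and 47 were higher, 2 lower and 1 not called, where 18.1% of 24036 genes were higher and 13.8% lower. Among the 12 members with at least 10 counts in every EV library, 10 rose and the same 2 fell. The shares of all genes that rose or fell at that limit were not determined.

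The size of the change differed widely between members. Among tested members 34 were called at 4-fold or more (73.9%), where 8.26% of all tested genes were. That share is limited by the filter, which 34 of the 46 tested members passed through the Sox4 libraries. A gene low in EV is tested only when it is high enough in Sox4. The 12 members with at least 10 counts in every EV library ran from -1.20 (Spc24) to 2.12 (Incenp) on the log2 scale. Of the 50 members, 6 had no count in any EV library (Ccnb1, Cdc25c, Ndc80, Cenpf, Bub1 and Kif4), and 5 of them were tested, where 0.780% of all tested genes had none. Another 10 members had 1 to 3 counts over the 3 EV libraries together. At most 3 counts in each EV library were found for 19 members, 4 of which were not tested, where 2.68% of all tested genes were so low. The median log2 fold change of the 46 was 3.55, or 3.50 with genes at 0 in EV set at their bound, where that of all tested genes was 0.04. The limit of the filter holds for this median too. It was 3.86 over all 50 members without a filter, and 3.15 over the 21 members with a mean count of at least 50. In bulk RNA, more dividing cells and more RNA per cell cannot be told apart, and the measurements do not show which cells held the transcripts.

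**Figure D2:**
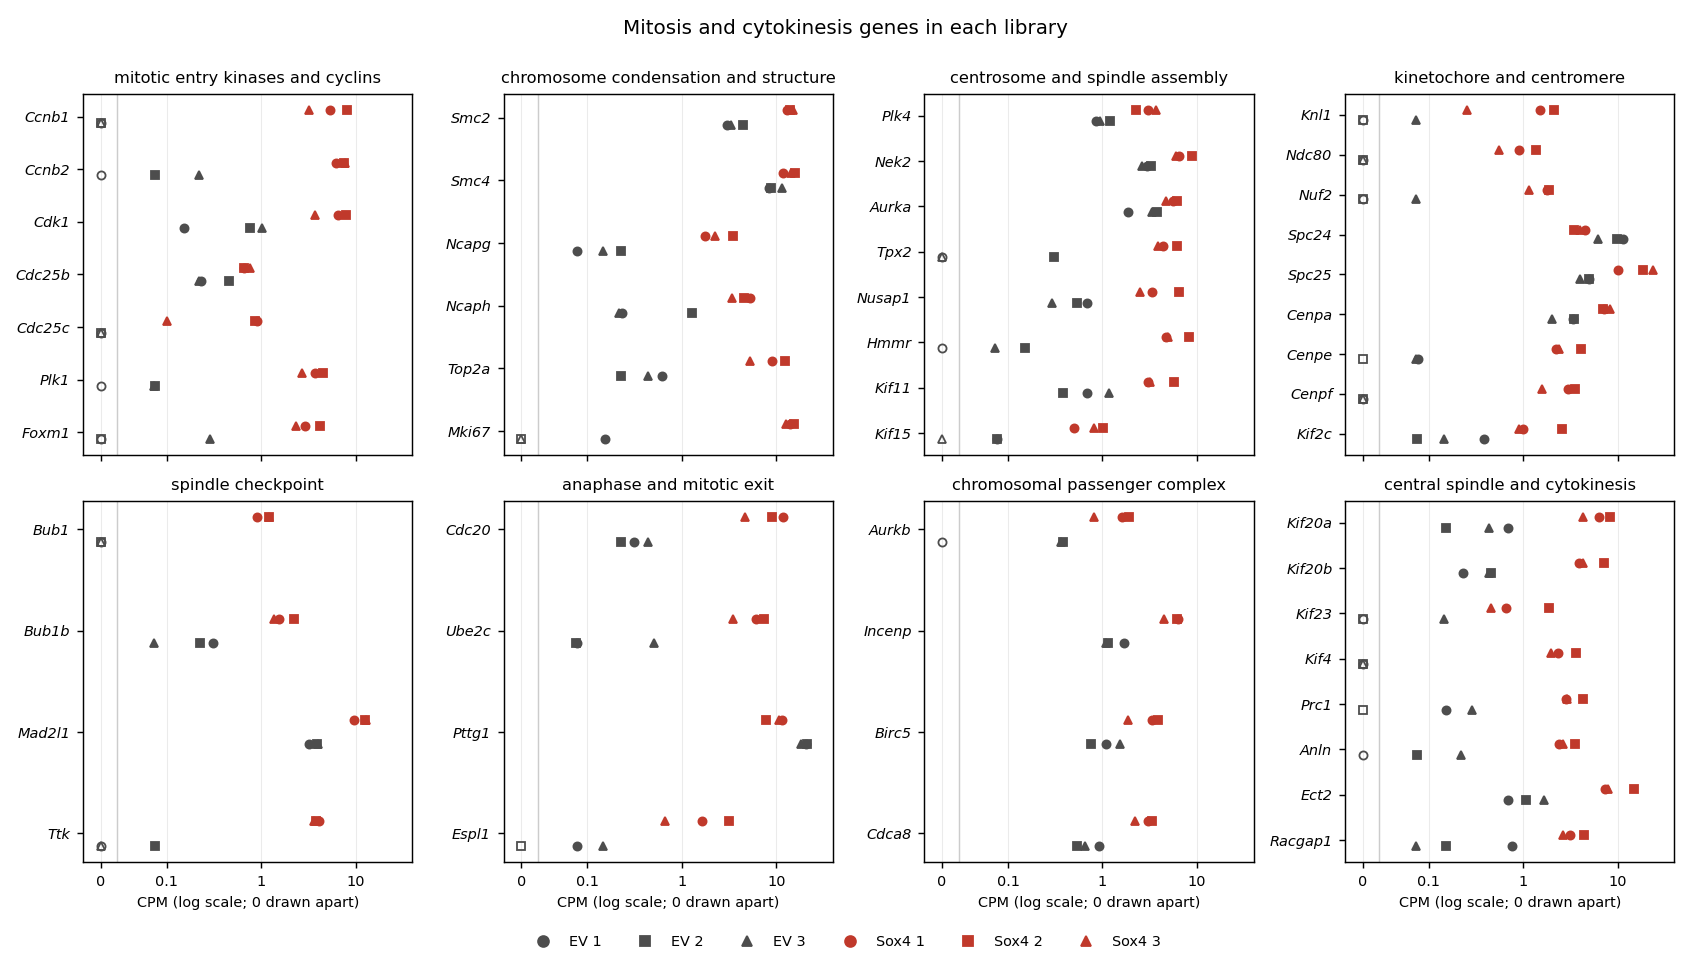
Level of each of the 50 members in each library, in CPM on a logarithmic axis, with values of 0 drawn as open symbols left of the line; grey symbols are EV, red symbols Sox4, and the symbol shape is the replicate number. The Sox4 symbols lie right of the EV symbols for 48 members and left of them for Spc24 and Pttg1.

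Of the 8 roles, the genes that start mitosis showed the widest gap. Their summed level was 0.385, 1.37 and 1.82 CPM in the EV libraries and 26.3, 33.8 and 20.6 CPM in the Sox4 libraries, a 22.6-fold difference of the means. Ccnb1, the cyclin that activates Cdk1, had 0 counts in all EV libraries and 107, 160 and 63 in Sox4 1 to 3. It was at least 74.1-fold higher against the floor of 3 counts over the 3 EV libraries together (adjusted p = 1.10e-04, edgeR). Part of its sequence, 23.4% of 50-base stretches, is shared with the pseudogene Ccnb1-ps, which had 0 counts in every library. Ccnb2, the other main mitotic B-type cyclin, had 0, 1 and 3 counts in EV and 124, 146 and 153 in Sox4, with the 3 Sox4 libraries close together. Its log2 fold change was 6.05 (standard error, SE, 0.50, adjusted p = 9.35e-06), and 7.28 without EV 3.

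Cdk1, the kinase itself, was detected in each EV library, at 0.154, 0.759 and 1.02 CPM, and reached 6.57, 7.87 and 3.75 CPM in Sox4. The lowest Sox4 library was above the highest EV library, and the log2 fold change was 3.21 (SE 0.50, adjusted p = 5.32e-04). Plk1, the polo kinase that acts with Cdk1 at entry, had 0, 1 and 1 counts in EV and 74, 89 and 53 in Sox4, a ratio of 72.7 (95% exact counting interval 19.9 to 604.5, adjusted p = 3.10e-05). Its near copy Plk-ps1, which shares 6.56% of its 50-base stretches, stayed at 8 counts or fewer. Foxm1, the transcription factor of late cell cycle genes, had 0, 0 and 4 counts in EV and 58, 82 and 46 in Sox4, and its log2 fold change was 4.87 (SE 0.75, adjusted p = 4.32e-04). All its EV counts were in EV 3, and without that library the fitted value was 8.74, which rests on EV counts of 0.

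The Cdc25 phosphatases, which remove the inhibitory phosphates from Cdk1, had the lowest counts of this role in Sox4. Cdc25b had 3, 6 and 3 counts in EV and 13, 13 and 15 in Sox4. The groups did not overlap, but the log2 fold change of 1.18 (SE 0.51) did not pass (adjusted p = 0.0764). With library sizes not scaled by TMM it did (1.64, adjusted p = 0.0172). Cdc25c had 0 counts in EV and 18, 17 and 2 in Sox4, missed the filter through Sox4 3, and was at least 8.31-fold higher against the floor (adjusted p = 9.79e-05 without a filter).

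Chromosome condensation genes differed in their starting level, since some were well detected in EV and others were at or near 0. Smc2 and Smc4 are the ATPases common to both condensin complexes. Smc4 was at 8.48, 8.73 and 11.5 CPM in EV and 11.7, 15.6 and 14.3 CPM in Sox4, so that the nearest libraries almost touched. Its log2 fold change of 0.54 (SE 0.18, adjusted p = 0.0298) was the smallest rise of any member, and it no longer passed without EV 1 (0.44), EV 2 (0.46), Sox4 2 (0.45) or Sox4 3 (0.52). Smc2 was at 3.01, 4.48 and 3.34 CPM in EV and 13.1, 13.9 and 15.1 CPM in Sox4, and its log2 fold change was 1.96 (SE 0.20, adjusted p = 3.09e-05). The subunits particular to condensin I were lower in EV. Ncaph rose by 2.92 (SE 0.56) from 3, 17 and 3 counts to 106, 90 and 67, and Ncapg by 3.99 (SE 0.54) from 1, 3 and 2 counts to 35, 69 and 44, both on the log2 scale. Without EV 2, which held most of its EV counts, the Ncaph value was 4.25.

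Mki67 and Top2a are the usual markers of cycling cells. Mki67, which coats mitotic chromosomes, had 2, 0 and 0 counts in EV and 276, 302 and 252 in Sox4. The Sox4 libraries lay within a narrow range, and the ratio of 279.5 had a counting interval of 77.1 to 2312 (adjusted p = 1.67e-06) and rests on the 2 counts of EV 1. Top2a, the topoisomerase that untangles sister chromatids, had 8, 3 and 6 counts in EV and 178, 242 and 104 in Sox4, a spread of more than 2-fold among the Sox4 libraries. Its log2 fold change was 4.35 (SE 0.45, adjusted p = 3.53e-05).

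All 7 tested genes of the centrosome and spindle rose, by 0.88 to 6.17 on the log2 scale. The smallest changes were those of kinases of the centrosome. Nek2, which helps to separate centrosomes, was at 2.93, 3.27 and 2.61 CPM in EV and 6.42, 8.79 and 5.98 CPM in Sox4 (log2 fold change 1.26, SE 0.24, adjusted p = 0.00163). Aurka, which matures centrosomes and builds the spindle, was at 1.85, 3.80 and 3.34 CPM in EV and 5.56, 6.23 and 4.76 CPM in Sox4. Its log2 fold change of 0.88 (SE 0.29, adjusted p = 0.0277) did not pass without EV 1 (0.61) or Sox4 2 (0.79). Plk4, which starts centriole duplication, had 11, 16 and 13 counts in EV and 60, 44 and 72 in Sox4 (log2 fold change 1.56, SE 0.35, adjusted p = 0.00399).

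Spindle factors that act on microtubules changed more. Hmmr, a spindle-pole protein, had 0, 2 and 1 counts in EV and 95, 160 and 97 in Sox4, a ratio of 79.0 (counting interval 26.8 to 385.1, adjusted p = 1.84e-05). Its fitted log2 fold change was 6.17, and 7.05 without EV 2. Tpx2, which activates Aurka on the spindle, had 0, 4 and 0 counts in EV and 87, 122 and 77 in Sox4 (log2 fold change 5.49, SE 0.69, adjusted p = 1.40e-04). All 4 EV counts were in EV 2, and the Tpx2 value was 9.37 without that library, where it rests on EV counts of 0, and 4.90 without EV 3. Nusap1, which bundles microtubules near chromosomes, had 9, 7 and 4 counts in EV and 66, 126 and 49 in Sox4 (ratio 8.12, counting interval 5.14 to 13.5, adjusted p = 6.68e-04). The motor Kif11, which pushes the poles apart, had 9, 5 and 16 counts in EV and 61, 113 and 63 in Sox4 (log2 fold change 2.41, SE 0.45, adjusted p = 0.00139). Kif15, a motor with an overlapping task, was rare in both groups, with 1, 1 and 0 counts against 10, 20 and 16. It missed the filter, and its ratio was 15.5 (counting interval 4.05 to 131.8).

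At the kinetochore, subunits of a single complex moved in opposite directions. The Ndc80 complex, which grips microtubule ends, consists of Ndc80, Nuf2, Spc24 and Spc25. Ndc80 had 0 counts in EV and 18, 27 and 11 in Sox4, at least 12.6-fold higher (adjusted p = 0.00176). Nuf2, its partner at the microtubule end, had 0, 0 and 1 counts in EV and 36, 37 and 23 in Sox4, a ratio of 64.7 (counting interval 11.3 to 2580, adjusted p = 2.24e-04). Neither exceeded 1 count in any EV library, and without EV 3, which held the only Nuf2 count, no ratio can be given.

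Spc25 and Spc24 form the other end of the complex, toward the centromere. Spc25 was at 5.01, 5.01 and 3.99 CPM in EV and 10.1, 18.7 and 23.5 CPM in Sox4, with Sox4 1 well below the other Sox4 libraries, and its log2 fold change was 1.90 (SE 0.30, adjusted p = 6.01e-04). Spc24 was at 11.6, 9.80 and 6.17 CPM in EV and 4.51, 3.47 and 4.00 CPM in Sox4. Every Sox4 library was below every EV library, and the log2 fold change was -1.20 (SE 0.26, adjusted p = 0.00324), a level 2.29-fold higher in EV. Per kilobase of exon, EV hepatocytes carried Spc24 at 3.57 and Spc25 at 1.47 CPM per kb, Nuf2 at 0.00382 and Ndc80 at 0, and Sox4 hepatocytes Spc25 at 5.47, Spc24 at 1.55, Nuf2 at 0.255 and Ndc80 at 0.146.

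The other tested kinetochore members rose. Cenpa, the histone variant that marks centromeres, was at 3.39, 3.42 and 2.03 CPM in EV and 7.12, 7.05 and 8.36 CPM in Sox4 (log2 fold change 1.35, SE 0.25, adjusted p = 0.00140). Cenpf had 0 counts in EV and 59, 70 and 31 in Sox4, at least 35.9-fold higher (adjusted p = 2.32e-04), and the motor Cenpe had 1, 0 and 1 counts in EV and 45, 80 and 47 in Sox4, a ratio of 57.9 (counting interval 15.8 to 482.2). Kif2c, which takes microtubules apart at faulty attachments, had 5, 1 and 2 counts in EV and 20, 51 and 18 in Sox4 (log2 fold change 2.86, SE 0.69, adjusted p = 0.00608), which was 3.66 without EV 1 and 2.21 without Sox4 2. Knl1, the scaffold for checkpoint proteins, had 0, 0 and 1 counts in EV and 30, 42 and 5 in Sox4, missed the filter through Sox4 3, and had a ratio of 51.9 (counting interval 9.04 to 2075).

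All 4 checkpoint members rose, but from different starting levels. Mad2l1, which holds back Cdc20, was at 3.24, 3.95 and 3.99 CPM in EV and 9.52, 12.5 and 12.8 CPM in Sox4 (log2 fold change 1.64, SE 0.20, adjusted p = 1.15e-04). Ttk, the kinase that starts checkpoint signalling, had 0, 1 and 0 counts in EV and 81, 75 and 71 in Sox4, a ratio of 152.9 (counting interval 27.2 to 6066, adjusted p = 1.75e-05) that rests on the 1 count of EV 2. Its Sox4 libraries were the closest together of any member, with a coefficient of variation of 6.03%. Bub1 had 0 counts in EV and 18, 24 and 24 in Sox4, at least 14.8-fold higher (adjusted p = 6.17e-04), and its relative Bub1b had 4, 3 and 1 counts in EV and 31, 44 and 27 in Sox4 (log2 fold change 3.05, SE 0.54, adjusted p = 0.00100).

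In the anaphase role 3 members rose and Pttg1 fell. Pttg1, securin, keeps the protease separase inactive until anaphase. It was the most abundant member per kilobase in EV, with 20.6, 21.0 and 18.3 CPM, and had 11.6, 7.82 and 10.6 CPM in Sox4. The groups were well apart, and the log2 fold change was -0.99 (SE 0.17, adjusted p = 8.84e-04), a level 1.99-fold higher in EV. Separase itself, Espl1, moved the other way, from 1, 0 and 2 counts in EV to 33, 62 and 13 in Sox4, a ratio of 24.2 (counting interval 8.08 to 119.4, adjusted p = 0.00206). Its fitted log2 fold change was 4.47, with 5.32 without EV 3 and 3.82 without Sox4 2.

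Cdc20 and Ube2c drive the destruction of securin and cyclin B through the anaphase-promoting complex. Cdc20, its activator, had 4, 3 and 6 counts in EV and 233, 176 and 93 in Sox4 (log2 fold change 4.67, SE 0.46, adjusted p = 2.74e-05). The Sox4 libraries differed by more than 2-fold, with Sox4 1 the highest. Ube2c, its ubiquitin-conjugating enzyme, had 1, 1 and 7 counts in EV and 123, 145 and 69 in Sox4 (log2 fold change 4.62, SE 0.58, adjusted p = 1.37e-04), and 6.07 without EV 3, which held 7 of its 9 EV counts. Cdc20 shares 10.4% of its 50-base stretches with other genes, most with Gm7856, which had 0 counts in every library. Pttg1 held most of the role's level in EV, and the summed level of this role was 20.6 ± 1.02 CPM in EV and 26.0 ± 5.91 CPM in Sox4 (SD, n = 3), only 1.26-fold apart, with Sox4 3 (19.5) inside the EV range of 19.4 to 21.3.

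The chromosomal passenger complex, which corrects chromosome attachments and later moves to the midzone, rose in all 4 members by 1.41 to 2.49 on the log2 scale, a narrower range than in the other roles with several members. Incenp, the scaffold, was at 1.70, 1.14 and 1.09 CPM in EV and 6.37, 6.18 and 4.51 CPM in Sox4 (log2 fold change 2.12, SE 0.30, adjusted p = 2.38e-04). Birc5, survivin, was at 1.08, 0.759 and 1.53 CPM in EV and 3.31, 3.83 and 1.88 CPM in Sox4, with Sox4 3 close to the highest EV library. Its log2 fold change of 1.41 (SE 0.40, adjusted p = 0.0139) did not pass without EV 2 (1.18) or Sox4 2 (1.20). Cdca8, borealin, had 12, 7 and 9 counts in EV and 61, 65 and 44 in Sox4 (log2 fold change 2.02, SE 0.37, adjusted p = 0.00132). Aurkb, the kinase of the complex, had 0, 5 and 5 counts in EV and 32, 37 and 16 in Sox4. Its log2 fold change of 2.49 (SE 0.70, adjusted p = 0.0132) did not pass without Sox4 2 (2.24).

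**Figure D3:**
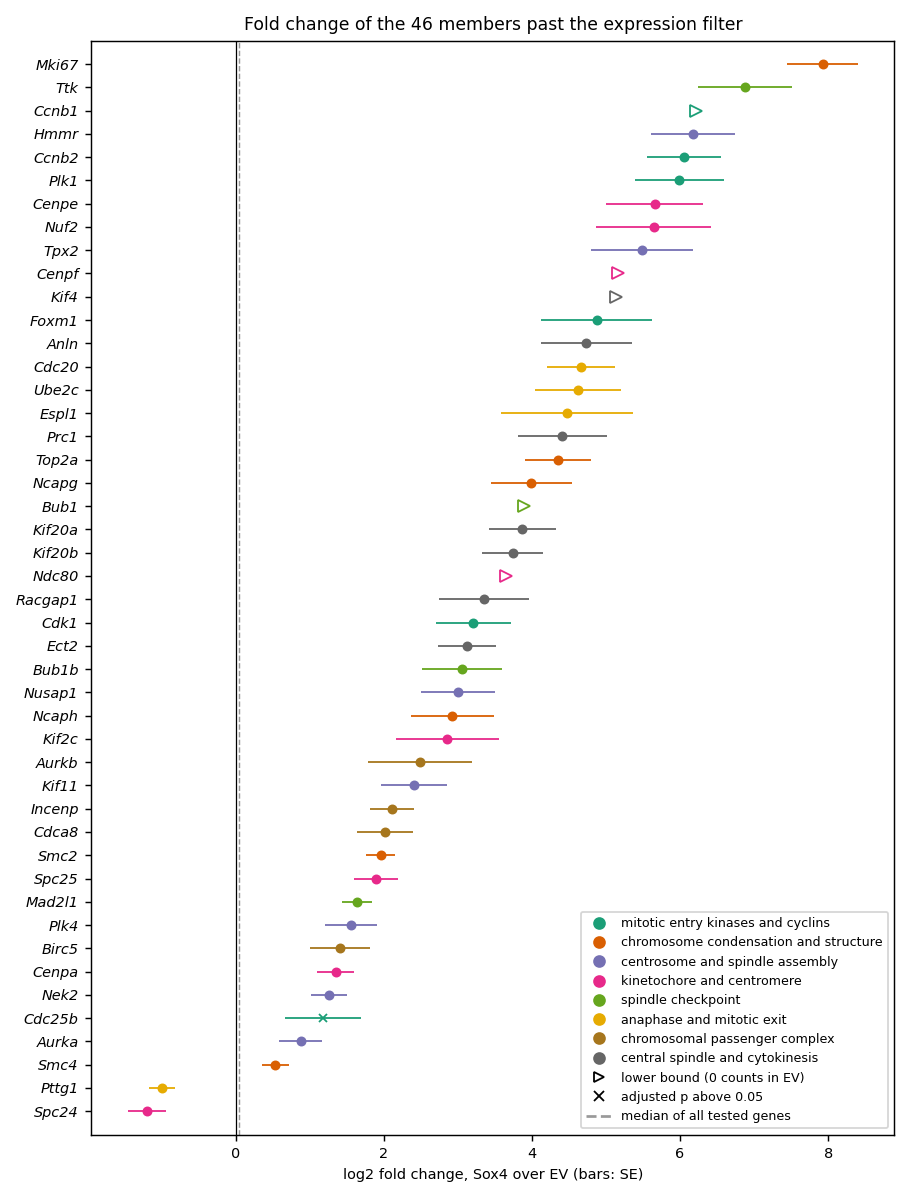
Log2 fold change of Sox4 over EV with its SE for the 46 tested members, coloured by role, with open triangles at the lower bound for the 5 members without a count in EV and a cross for Cdc25b, which did not pass. The dashed line is the median of all tested genes (0.04); only Pttg1 and Spc24 lie left of it.

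Genes of the central spindle and cytokinesis rose together, by at least 3.12 on the log2 scale in all 7 tested members. Their summed level was 2.54, 1.90 and 3.27 CPM in EV and 29.1, 47.9 and 27.2 CPM in Sox4, a 13.5-fold difference of the means. Ect2, which activates RhoA at the cell equator, had 9, 14 and 23 counts in EV and 148, 289 and 157 in Sox4 (log2 fold change 3.12, SE 0.39, adjusted p = 1.28e-04). Sox4 2 stood apart from the other Sox4 libraries here and was the highest Sox4 library for all 8 genes of the role. Racgap1 and Kif23 make up centralspindlin, which brings Ect2 to the midzone. Racgap1 had 10, 2 and 1 counts in EV and 63, 87 and 52 in Sox4 (log2 fold change 3.35, SE 0.61, adjusted p = 0.00125), against 4.83 when EV 1 was left out. Kif23 had 0, 0 and 2 counts in EV and 13, 37 and 9 in Sox4, missed the filter and had a ratio of 19.9 (counting interval 5.26 to 167.9).

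Kif20a, a motor that carries the passenger complex to the midzone, had 9, 2 and 6 counts in EV and 128, 162 and 85 in Sox4 (log2 fold change 3.87, SE 0.46, adjusted p = 8.24e-05). Kif20b, its relative, had 3, 6 and 6 counts in EV and 77, 139 and 86 in Sox4 (log2 fold change 3.74, SE 0.42, adjusted p = 5.79e-05). Prc1 and Kif4 bundle and limit the midzone microtubules. Prc1 had 2, 0 and 4 counts in EV and 57, 84 and 57 in Sox4 (log2 fold change 4.41, SE 0.60, adjusted p = 2.08e-04; 5.31 without EV 3). Kif4 had 0 counts in EV and 47, 71 and 39 in Sox4, at least 35.3-fold higher (adjusted p = 1.62e-04). Anln, anillin, the scaffold of the contractile ring, had 0, 1 and 3 counts in EV and 48, 69 and 52 in Sox4 (log2 fold change 4.73, SE 0.62, adjusted p = 1.57e-04; 5.96 without EV 3).

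Several members overlap a gene on the opposite strand, and the strand setting of the counting is not given in the sources used here, so reads of such neighbours cannot be told apart there. Kif4 shares 832 exon bases with Pdzd11, which had 174 to 218 counts in EV, where Kif4 had 0, and did not pass the test. Kif20a shares 1271 bases with Cdc23 and Prc1 shares 911 with Rccd1, neither of which passed, and Ncapg shares 944 with Lcorl, which was higher in Sox4. Nusap1 shares 172 bases with Oip5, which was also higher, and Cdc20 shares 53 with Elovl1, which was lower. Ube2c shares 592 with Tnnc2, which had 0 counts in every library. Pttg1 and Spc24, the members that fell, overlapped no annotated gene (GENCODE M21, GRCm38).

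**Figure D4:**
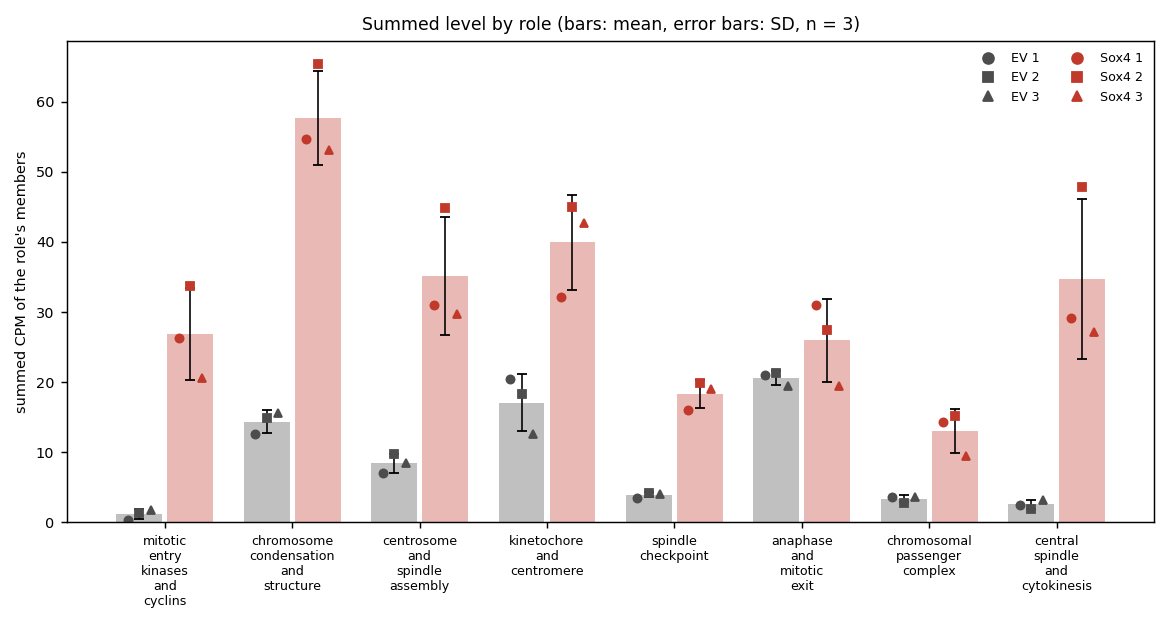
Summed level of the members of each role in CPM, with bars for the mean and error bars for the SD of 3 libraries, grey for EV and red for Sox4, and symbols for single libraries. Sox4 libraries lie above all EV libraries in every role except anaphase and mitotic exit, where Sox4 3 (19.5 CPM) lies within the EV values.

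The composition of the mitotic transcripts differed between the groups as well as their amount. The summed level of all 50 members was 71.3, 74.6 and 68.8 CPM in EV (71.5 ± 2.91, SD, n = 3) and 234.7, 299.4 and 221.2 CPM in Sox4 (251.8 ± 41.8), 3.52-fold apart, and 5.60-fold without Spc24 and Pttg1. Per kilobase of exon, Pttg1 (9.97 CPM per kb) and Spc24 (3.57) led in EV and together held 59.2% of the members' summed level per kilobase, against 10.9% in Sox4. In Sox4 the order was led by Spc25 (5.47 CPM per kb), Pttg1 (5.01), Ccnb2 (4.67), Cdc20 (4.53) and Smc4 (2.66). Spc25, Pttg1, Ccnb2 and Cdc20 differed from their neighbours in this order by less than the SD of their Sox4 libraries. Ccnb2 was at 0.0640 and Cdc20 at 0.173 CPM per kb in EV.

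Sox4 2 was the highest Sox4 library for 36 of the 50 members, and Sox4 3 was the lowest for 30. The coefficient of variation among Sox4 libraries had a median of 30.8%, from 6.03% for Ttk to 77.8% for Kif23. Of the replication genes, Sox4 1 was the highest for 18 of 27. Kupffer cell markers were highest in Sox4 3 and lowest in Sox4 1, with summed levels of 31.1, 60.9 and 72.2 CPM in Sox4 1, 2 and 3, where those of the members were 234.7, 299.4 and 221.2. The part of other cell types in the members' levels was not tested.

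Members with CHR letters near the start were compared with those without. Of the 30 members with a match within 50 bases of the start, 26 were higher, 1 (Cdc25b) was not called and 3 were not tested, and the median log2 fold change of those tested was 4.35. This median includes fitted values of Ndc80, Cenpf, Bub1 and Kif4, which had no count in EV. Their bounds of 3.65, 5.17, 3.89 and 5.14 lay below the fitted 6.98, 8.48, 7.21 and 8.46. Of the 12 members with a promoter but no such match, 11 were higher and 1, Pttg1, was lower, with a median of 2.89 and a range from -0.99 to that of Ccnb1, which had no count in EV. No promoter was held for Spc24. Of all tested genes 29.0% were higher, and the limit of the filter given above holds for these counts and both medians. These values describe the members and were not tested. Members of either kind included genes at or near 0 in EV, such as Plk1 with a near match and Mki67, whose TTTGAA matches began at -116 and -98.

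Other genes of mitosis, outside the 50, also mostly rose. Of 62 further mitotic genes 51 were tested, and 43 were higher (84.3%, against 29.0% of all tested genes), 2 lower and 6 not called, with a median log2 fold change of 2.49. Ckap2, a spindle protein, rose from 4, 26 and 14 counts to 456, 375 and 337 (4.15, SE 0.41, adjusted p = 4.93e-05; 4.85 without EV 2), Ncapd2, a condensin subunit, by 2.57 (SE 0.25), and Arhgap11a, a RhoA regulator of cytokinesis, by 2.49 (SE 0.34), all on the log2 scale. The 2 that fell were Ccnf, a cyclin-like ubiquitin ligase subunit, with 349, 422 and 449 counts in EV and 225, 208 and 140 in Sox4 (-1.66, SE 0.19, adjusted p = 6.38e-05), and Cenpm (-1.52, SE 0.47, adjusted p = 0.0191), which was named after its values were seen. Cenpm did not pass without TMM scaling (-1.05) or without EV 2 (-1.31), Sox4 2 (-1.18) or Sox4 3 (-1.40), and was -2.14 without Sox4 1. The most abundant of the list, Hjurp and Zwint, had log2 fold changes of 0.12 (SE 0.12) and 0.03 (SE 0.11) and did not pass, but both did without TMM scaling (0.59 and 0.50).

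Smaller median changes were found for subunits of mitotic complexes that are also present outside mitosis. The lists were not matched to the members for level in EV, where 34 of the 46 tested members lacked 10 counts in some library. The 12 members with at least 10 counts in every EV library ran from -1.20 to 2.12 on the log2 scale. Of 17 tested kinetochore scaffold subunits, 9 were higher (52.9%) and 1 lower (5.88%), against 29.0% and 26.0% of all tested genes, and 7 were not called (median log2 fold change 0.46). They included Cenpt (2.27, SE 0.28), the microtubule binder Clasp1 (1.97, SE 0.12), Cenpc1 (1.03, SE 0.19) and the checkpoint protein Bub3 (0.46, SE 0.11), while Pmf1, a Mis12 complex subunit, fell (-1.07, SE 0.21, adjusted p = 0.00211). Of the 15 core subunits of the anaphase-promoting complex, 7 were higher (46.7%) and 1 lower (6.67%), against the same 29.0% and 26.0%, and 7 were not called (median 0.32), with Anapc4 at 1.82 (SE 0.11), Anapc5 at 0.65 (SE 0.10), Anapc2 at 0.62 (SE 0.12) and Anapc13 at -1.11 (SE 0.20). Anapc10 had 42, 29 and 32 counts in EV and 103, 85 and 119 in Sox4 (adjusted p = 0.00944). Its activator Cdc20 differed by 25.4-fold.

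Cohesin holds sister chromatids together. Of its 12 genes 3 were higher (against 29.0% of all tested genes) and 9 not called (median 0.26), and 11 were called without TMM scaling. The 3 were Mau2 (0.82, SE 0.12) and Nipbl (0.40, SE 0.14), which load cohesin, and Smc3 (0.39, SE 0.11), a core subunit. Nipbl did not pass without EV 1 (0.30), EV 2 (0.39), Sox4 2 (0.33) or Sox4 3 (0.35), nor Smc3 without EV 2 (0.36) or EV 3 (0.35). Wapl, which releases it, and Stag2 had log2 fold changes of -0.18 (SE 0.12) and 0.33 (SE 0.14) and did not pass, but Stag2 did without TMM scaling (0.80), without a filter (0.38) and without EV 3 or Sox4 1 (0.42 each). It also passed with the replicate number as a block (0.33).

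MuvB is the core of the complexes that bind the CHR. Of 13 MuvB, B-Myb and DREAM genes, 1 was not analysed here and 11 were tested, with 4 higher (36.4%), 2 lower (18.2%) and 5 not called (median 0.21), shares near the 29.0% and 26.0% of all tested genes. Mybl2, B-Myb, was near the floor in both groups, with 4 counts in each EV library and 8, 1 and 7 in Sox4, and was not tested. Mybl2 shares 19.3% of its 50-base stretches with other genes, most with Gm3320, and the treatment of multi-mapping reads is not given. Its relative Mybl1, A-Myb, had 46, 63 and 68 counts in EV and 684, 491 and 901 in Sox4 (log2 fold change 2.98, SE 0.24, adjusted p = 1.08e-05). Lin9 (1.58, SE 0.21) and Rbbp4 (0.56, SE 0.15) of the MuvB core rose, and Rbl2, the pocket protein p130 of DREAM, fell (-0.53, SE 0.12, adjusted p = 0.00328), as did Tfdp2 (-0.46, SE 0.16, adjusted p = 0.0331). Neither passed without TMM scaling (adjusted p = 0.643 and 0.981), and Tfdp2 did not pass without a filter (-0.42) or without EV 1 (-0.43), EV 2 (-0.47), Sox4 2 (-0.43) or Sox4 3 (-0.36).

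Several genes that restrain the cell cycle were higher in the same libraries. Of 8 such genes 7 were tested, and 5 were higher (71.4%, against 29.0% of all tested genes) and 2 not called. Cdkn1a, the inhibitor p21, had 1556, 1791 and 1453 counts in EV and 9279, 5656 and 5503 in Sox4, with Sox4 1 apart from the others (log2 fold change 1.51, SE 0.21, adjusted p = 2.45e-04). Cdkn1c, the inhibitor p57, had 4, 14 and 4 counts in EV and 686, 530 and 809 in Sox4 (5.93, SE 0.36, adjusted p = 2.75e-06; 6.79 without EV 2). Gadd45b (4.94, SE 0.37) and Gadd45a (2.29, SE 0.33), which respond to stress, also rose. Cdkn1b, the inhibitor p27, had a log2 fold change of -0.19 (SE 0.14) and did not pass.

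Of 27 replication genes, all tested, 20 were higher (74.1%, against 29.0% of all tested genes) and 7 not called, with a median log2 fold change of 1.93. Uhrf1, a maintenance factor of DNA methylation, had 2, 5 and 0 counts in EV and 189, 138 and 33 in Sox4 (5.05, SE 0.91, adjusted p = 0.00197), against 6.19 when EV 2 and 4.45 when EV 3 was left out. The helicase subunit Mcm5 rose by 3.53 (SE 0.29), the chromatin assembly subunit Chaf1b by 2.76 (SE 0.33) and the nucleotide reductase subunit Rrm1 by 2.13 (SE 0.16) on the log2 scale.

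**Figure D5:**
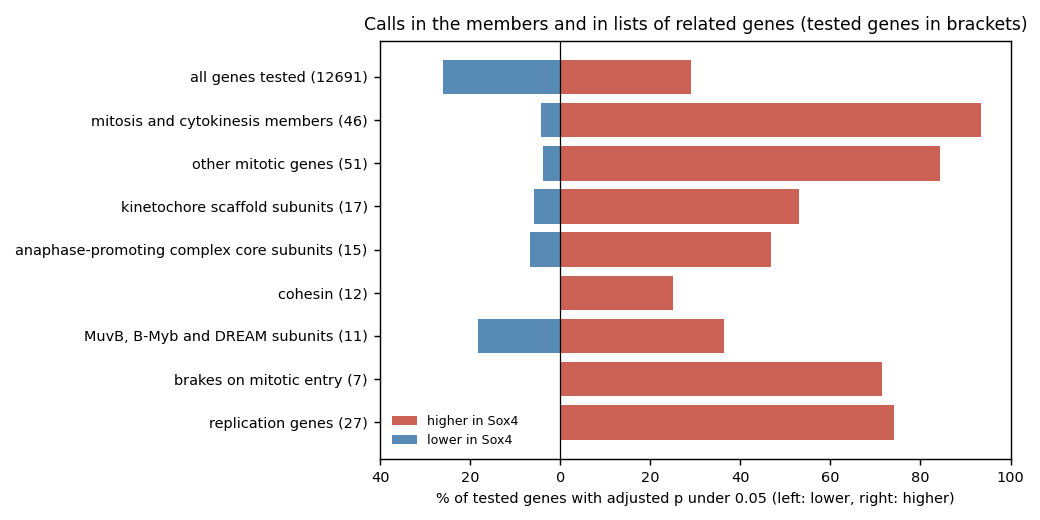
Share of the tested genes of each list that were higher (right, red) or lower (left, blue) in Sox4 at an adjusted p under 0.05, in percent, with the number tested in brackets and all 12691 tested genes on top. The members stand at 93.5% higher, further mitotic genes at 84.3% and replication genes at 74.1%, against 29.0% of all tested genes, while 3 of 12 cohesin genes were higher. Only tested genes are counted, and 34 of the 46 tested members passed the filter through the Sox4 libraries.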

How the data were processed

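RNA-Seq of 6 hepatocyte libraries (3 EV, 3 Sox4) was analysed from the files the authors deposited. Per the labels, reads were aligned to GRCm39 with STAR 2.7.10b and counted per gene with featureCounts 2.0.1. Which annotation release was used, whether strand was counted and how multi-mapping reads were treated is not given in the sources used here. The deposited count table holds raw counts per gene. The deposited normalized table is a signal, the counts divided by 1 DESeq2 size factor per library, and served only for an alternative with limma.

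The members and gene lists were chosen with earlier results of these data known. Genes were filtered with filterByExpr (minimum count 10, minimum total count 15), scaled by TMM and tested across all 12691 genes with the quasi-likelihood test of edgeR 4.0.16 (R 4.3.3), with Benjamini-Hochberg adjustment. SE is the log2 fold change divided by the square root of F. No batch is labelled. Members past the threshold were named by role with their values, and in other lists up to 3 genes per direction with the largest change at a mean count of at least 50 and the 2 with the highest mean count. Exon lengths, overlaps and shared 50-base stretches came from GENCODE M21 (GRCm38), an older build than that of the counts, matched by symbol only, and promoters came from RefSeq (GRCm38.p6). The fit was tested on simulated data. Alternatives used DESeq2 1.42.0 and limma 3.58.1. Replicates of a group differed by more than sampling noise in every pair, with 18.0 to 71.3 chi-square per degree of freedom. Some items that these rules select are not reported here.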

Additional observations from a re-analysis of the deposited data

How the results depend on the processing

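No value of a single member changed sign under any alternative run. Of 619 such values, 609 kept their side of the threshold, 9 lost it when 1 library was left out (Smc4, Aurka, Aurkb and Birc5, above) and 1 gained it (Cdc25b without TMM scaling). Members called higher numbered 43 with DESeq2, DESeq2 size factors, limma-voom, limma on the deposited normalized values or the replicate block, the same 43 genes each time, and 39 to 47 with 1 library left out. A mean count of at least 50 left 21 members to test, with 19 higher, and 12 further mitotic genes called instead of 45. The share of all genes called higher at that mean count was not determined. Cohesin genes called numbered 3, but 11 without TMM scaling, 5 without a filter and 1 to 5 with 1 library left out. The members' median log2 fold change ran from 3.27 to 4.07 with 1 library left out. Their summed level differed 3.52-fold, 4.87-fold without TMM scaling, 4.69-fold without the most abundant member, 5.60-fold without Spc24 and Pttg1 (an alternative chosen after seeing the data) and 3.19- to 3.73-fold with 1 library left out. Without TMM scaling the median of all genes moved from 0.04 to 0.51.

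Replicate numbers were shared between the groups, and the deviations of same-numbered libraries correlated at 0.27, -0.09 and 0.13. Libraries of different numbers were not compared, so these values do not decide whether equal numbers were pairs. The main test treated the libraries as unpaired. With the replicate block, 7362 genes were called instead of 6990, 43 members were higher and 2 lower, and the members' median was 3.58.

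Low counts limited Cdc25c, Kif15, Knl1 and Kif23, which missed the filter, and every fold against an EV group at or near 0. Cdc25c and Knl1 missed it through Sox4 3, whose total of 16795529 counts was close to those of the other Sox4 libraries.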
